A study of Mus musculus with 93 samples.

Results

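The data compared the effect of losing Esr2 on mouse granulosa cells at 6 months of age with the same effect at 4 weeks. Esr2 encodes estrogen receptor beta. The comparison used 32 of the 93 samples of the series: 6 from knock-out and 12 from wild type mice at 6 months, and 7 from knock-out and 7 from wild type mice at 4 weeks. All 32 were labelled as granulosa cells of the ovary, and their RNA was made into cDNA libraries by Smart-seq2, a full-length method for very small RNA inputs. Below, KO stands for knock-out and WT for wild type. Another 5 KO and 5 WT granulosa samples from mice of 7 weeks took no part in sorting genes into classes and were used as separate libraries. The labels give neither the strain, the design of the knock-out allele, any hormone treatment nor the stage of the follicles. They name no animals or pools, so the p-values measure only the spread between these libraries, which may be technical. Every gene found at both ages was followed: 17138 gene symbols were shared by the tables of both ages, and 13544 passed the filter on low counts and were tested.

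Granulosa cells line the ovarian follicle and feed the oocyte inside it. Estrogen receptor beta is their main estrogen receptor, a transcription factor that acts together with follicle-stimulating hormone while the follicle grows. Late in growth the outer, mural granulosa cells gain the receptor for luteinizing hormone, and after the ovulatory surge of that hormone they turn into the progesterone-making luteal cells of the corpus luteum, a change called luteinisation. The adult mouse ovary holds corpora lutea from earlier cycles, while the ovary of a mouse of 4 weeks is close to puberty.

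The libraries held between 826029 and 6469419 counts each. Summed granulosa markers took 6528 to 10373 CPM (counts scaled to a common library total) in KO and 5664 to 9799 CPM in WT libraries at 6 months. At 4 weeks they took 6263 to 10612 CPM in KO and 4425 to 8738 CPM in WT libraries. Serpine2 (group means of 2546 to 4136 CPM) and Inha (1665 to 3410 CPM) had the highest means among them. Foxl2 (6.31 to 11.3 CPM) and Fshr (11.8 to 34.4 CPM) were low but had a count in every library. No KO library had an Esr2 count, and pooled WT libraries were at least 66.35-fold higher at 6 months and at least 256.5-fold higher at 4 weeks, against a floor of 3 counts over the KO group (counting error only). Esr1, which encodes estrogen receptor alpha, was higher in KO at 6 months (log2 1.505 ± 0.414 SE, edgeR adjusted p = 0.0243), but not without KO library 3, 4 or 6 (adjusted p up to 0.0863). At 4 weeks it did not pass (log2 0.91 ± 0.47, adjusted p = 0.415), and its difference between ages was 0.59 ± 0.63 (adjusted p = 0.773). Because these are bulk samples, fewer cells of a type and less RNA per cell cannot be told apart.

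The effect of the knock-out differed between the ages for a small part of the genes it touched. The measure was an interaction on the log2 scale, the KO minus WT difference at 6 months minus that at 4 weeks, so a positive value means that KO stood higher relative to WT at 6 months than at 4 weeks. It passed an adjusted p of 0.05 for 92 of the 13544 genes (0.679%), of which 79 were positive (0.583%) and 13 negative (0.096%), and 1417 genes (10.5%) had an unadjusted p under 0.05. The knock-out effect itself passed for 832 genes at 6 months (6.14%; 3.44% higher and 2.7% lower in KO) and for 506 at 4 weeks (3.74%; 1.49% higher and 2.24% lower). Between them 158 genes passed at both ages in the same direction, which is 19.0% of those at 6 months and 31.2% of those at 4 weeks, and 3 passed in opposite directions. Of the 671 that passed at 6 months only, the interaction passed for 20, and of the 345 that passed at 4 weeks only, it passed for 58. For the remaining 651 and 287 genes a difference between ages was not shown, and 545 and 250 of them had the same sign at the other age. KO and WT libraries did not overlap for 1.45% of the genes at 6 months and 1.33% at 4 weeks. Adjusted p-values come from the quasi-likelihood F test of edgeR, corrected over all tested genes after Benjamini and Hochberg.

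The 92 genes were then split by what the effect did. It was first called reversed where it lay on opposite sides with an unadjusted p under 0.05 at each age, whether or not it passed adjustment there. Of the other genes it was called lost where it passed at 4 weeks and not at 6 months, gained where it passed at 6 months and not at 4 weeks, and resized where it passed at both ages on the same side. By these rules 45 effects were lost, 10 gained, 4 resized and 33 reversed. Lost means not passing at 6 months and not absent: 42 of the 45 had an unadjusted p of at least 0.05 there. Another 154 genes kept an effect that passed at both ages with no interaction called. The lost effects were mostly of genes lower in KO at 4 weeks (40 of 45), and 27 of the 33 reversed effects were higher in KO at 6 months and lower at 4 weeks. Of the 41 named genes with a called interaction, 21 stayed called whichever of the 32 libraries was left out. The total of 92 fell to 55 without KO library 5 of 6 months, 60 without WT library 6 of 4 weeks and 61 without KO library 6 of 4 weeks, and was 143 without WT library 1 of 4 weeks.

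**Figure D1:**
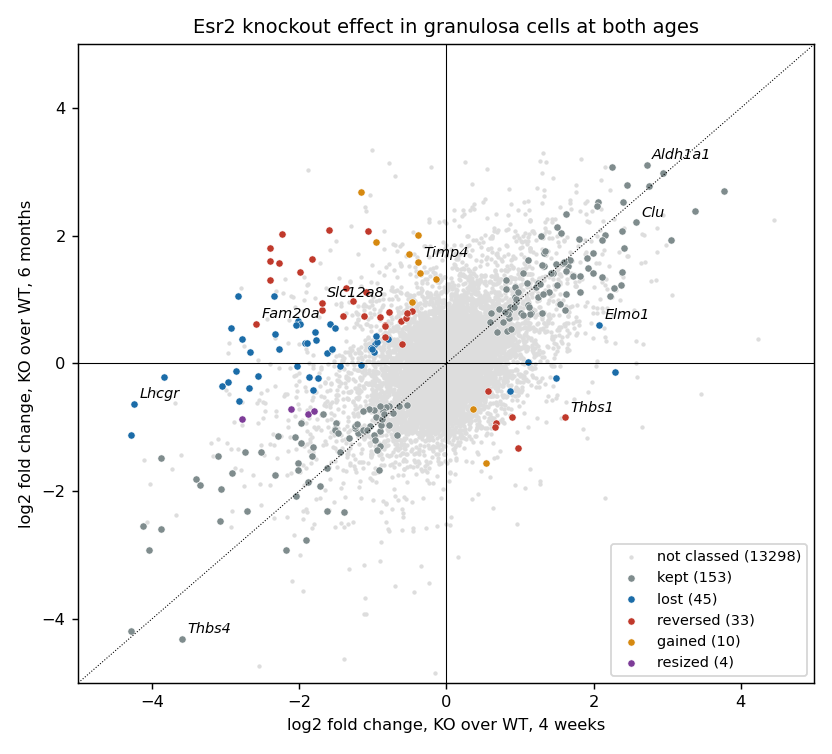
Knockout effect of each tested gene at 4 weeks (horizontal axis) and 6 months (vertical axis), as log2 fold change of KO over WT, with genes coloured by class and the dotted line marking equal effects. Esr2 is left out, and points beyond the frame are not shown. The 45 lost effects lie near the horizontal line at 0, the 33 reversed effects lie at upper left and lower right, and the kept effects follow the diagonal.

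Among the lost effects were those of a gonadotrophin receptor, of the enzyme that starts steroid synthesis and of a basement membrane collagen. Lhcgr, the receptor for luteinizing hormone, had 0.506, 7.21 and 37.7 CPM (lowest, median and highest library) in KO and 5.98, 19.6 and 34.2 CPM in WT at 6 months. At 4 weeks it had 1.21, 1.97 and 3.59 CPM in KO and 17.95, 40.9 and 92.4 CPM in WT. The groups did not overlap at 4 weeks, with every KO library low, whereas at 6 months the KO libraries spread over the whole WT range and beyond it, with 5 of 6 below the WT median. The log2 effect was -0.63 ± 0.42 (SE) at 6 months (adjusted p = 0.349) and -4.24 ± 0.51 at 4 weeks (adjusted p = 5.85e-07), an interaction of 3.61 ± 0.63 (adjusted p = 0.00236). Its interaction did not pass by limma voom.

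Cyp11a1, the enzyme that cuts the side chain of cholesterol to open steroid synthesis, was likewise lowest in KO at 4 weeks. It had 2289, 5171 and 9659 CPM in KO and 1642, 4099 and 5918 CPM in WT at 6 months, and 884, 1806 and 2611 CPM in KO and 1439, 4789 and 8895 CPM in WT at 4 weeks. Of the 6 KO libraries of 6 months 5 lay above the WT median of that age, while all 7 of 4 weeks lay below theirs. The interaction was 2.19 ± 0.48 (adjusted p = 0.0171); it missed the threshold without KO library 5 of 6 months (adjusted p = 0.0521) and by limma voom. Oxtr, the oxytocin receptor gene, had medians of 11.0 in KO and 10.2 CPM in WT at 6 months, and of 6.17 in KO and 23.9 CPM in WT at 4 weeks (interaction 2.24 ± 0.52, adjusted p = 0.0263). Its call ended without KO library 5 or 6 of 6 months, KO library 6 or WT library 7 of 4 weeks (adjusted p up to 0.0809), and by limma voom.

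The promoter windows below are shown because they are those of the named lost genes that hold the nuclear receptor core site AGGTCA, read on either strand. Each is a RefSeq window on GRCm38.p6 from 250 bases before to 50 after an annotated start, written 5′ to 3′ on the gene's strand, with the match in capitals. Estrogen receptors bind inverted pairs of such sites, and some other nuclear receptors bind the single one.
Lhcgr, chr17:88791965-88792264, minus strand: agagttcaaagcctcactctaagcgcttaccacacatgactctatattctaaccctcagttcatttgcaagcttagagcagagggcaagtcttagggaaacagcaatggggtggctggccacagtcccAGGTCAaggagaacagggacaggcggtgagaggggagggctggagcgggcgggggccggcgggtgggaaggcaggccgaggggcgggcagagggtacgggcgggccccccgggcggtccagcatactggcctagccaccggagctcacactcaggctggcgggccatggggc
Cyp11a1, chr9:58014702-58015001, plus strand: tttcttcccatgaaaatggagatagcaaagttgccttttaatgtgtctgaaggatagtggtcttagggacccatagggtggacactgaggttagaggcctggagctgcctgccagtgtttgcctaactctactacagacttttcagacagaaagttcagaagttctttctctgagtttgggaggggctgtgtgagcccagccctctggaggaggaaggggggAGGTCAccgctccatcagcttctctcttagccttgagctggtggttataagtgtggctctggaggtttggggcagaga
Oxtr, chr6:112489776-112490075, minus strand: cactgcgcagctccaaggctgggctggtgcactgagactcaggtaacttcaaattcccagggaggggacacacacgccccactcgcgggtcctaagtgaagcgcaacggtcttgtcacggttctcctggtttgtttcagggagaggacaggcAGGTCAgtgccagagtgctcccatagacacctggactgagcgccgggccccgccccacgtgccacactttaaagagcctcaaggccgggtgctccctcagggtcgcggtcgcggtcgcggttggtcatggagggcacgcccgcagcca
Ddit4l, chr3:137623422-137623721, plus strand: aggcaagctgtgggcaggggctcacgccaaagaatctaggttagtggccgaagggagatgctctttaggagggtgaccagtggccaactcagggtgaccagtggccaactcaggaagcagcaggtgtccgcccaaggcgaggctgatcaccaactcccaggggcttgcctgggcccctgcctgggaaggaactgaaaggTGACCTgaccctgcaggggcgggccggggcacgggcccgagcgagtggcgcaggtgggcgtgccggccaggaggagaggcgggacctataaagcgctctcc
The match began 122 bases before the start of Lhcgr, 28 before 1 of the 2 annotated starts of Cyp11a1, 98 before that of Oxtr and 51 before that of Ddit4l. Windows were found for 9869 tested genes. The core site occurred in 1475 of them (14.9%), in 10 of 34 lost genes with a window (29.4%), in 4 of 28 reversed (14.3%), 2 of 8 gained (25.0%) and 12 of 110 kept genes (10.9%). The full palindromic estrogen response element with a spacer of any letters occurred in 1 of the 9869 and in none of these classes. A match describes letters and not binding.

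Entpd1 and Col18a1 were also lower in every KO than in any WT library at 4 weeks and not at 6 months. Entpd1, a cell surface enzyme that breaks down extracellular ATP, had 18.7, 31.3 and 68.0 CPM in KO and 24.9, 41.7 and 59.8 CPM in WT at 6 months. At 4 weeks it had 7.63, 10.9 and 18.1 CPM in KO and 29.7, 70.8 and 109 CPM in WT. The highest KO value of 4 weeks was below the lowest KO value of 6 months as well, and at 6 months KO and WT overlapped (interaction 2.36 ± 0.35, adjusted p = 1.76e-04). Col18a1, a collagen of basement membranes, had 104, 149.7 and 220.1 CPM in KO and 131, 184 and 245 CPM in WT at 6 months, and 38.8, 49.0 and 63.2 CPM in KO and 133, 175 and 222 CPM in WT at 4 weeks. The KO libraries of 4 weeks were the low group, and the other 3 groups overlapped (interaction 1.65 ± 0.23, adjusted p = 1.08e-04).

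Pik3c2g, a class II phosphoinositide kinase, had an interaction of 2.23 ± 0.33 (adjusted p = 1.76e-04). Its effect was -0.59 ± 0.23 at 6 months (adjusted p = 0.104) with all 6 KO libraries below the WT median, and -2.82 ± 0.26 at 4 weeks. Rora, the nuclear receptor ROR alpha, gave 0.24 ± 0.15 at 6 months and -1.02 ± 0.17 at 4 weeks, and Pdlim2, a PDZ and LIM domain protein, gave 0.18 ± 0.30 and -2.66 ± 0.34. Both passed at 4 weeks with no overlap of the groups and did not pass at 6 months (adjusted p = 0.318 and 0.731). Exons of Rora overlap those of an antisense gene whose reads cannot be told apart where counting ignored strand.

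Further lost effects were found through the gene lists. Ptgs1, the cyclooxygenase 1 gene, had an interaction of 2.27 ± 0.51 (adjusted p = 0.021), Id2, a target of bone morphogenetic protein signals, 1.37 ± 0.33 (adjusted p = 0.0313), and Fdps, an enzyme of the mevalonate pathway to cholesterol, 1.16 ± 0.28 (adjusted p = 0.0336). Fdps had medians of 2338 CPM in KO and 1859 CPM in WT at 6 months against 482 CPM in KO and 920.1 CPM in WT at 4 weeks. Its call held in 22 and that of Id2 in 21 of the 32 fits that each left out 1 library, with adjusted p up to 0.0809 for both, and that of Fdps ended by limma voom. The call of Ptgs1 ended without KO library 5 of 6 months or WT library 6 of 4 weeks (adjusted p up to 0.0768). Named after their values were seen, Plin5 (a lipid droplet coat protein, interaction 3.17 ± 0.56), Tgm2 (transglutaminase 2, 2.68 ± 0.52), Xpnpep2 (an aminopeptidase, 3.64 ± 0.71) and Apln (the peptide hormone apelin, 3.17 ± 0.67) were also lost. Apln was still lower in KO at 6 months (-1.12 ± 0.45, edgeR unadjusted p = 0.0166, adjusted p = 0.112). Over all 40 lost genes lower at 4 weeks the median effect was log2 0.23 at 6 months and -1.96 at 4 weeks, and their effects at 6 months ran from -1.12 to 1.05.

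**Figure D2:**
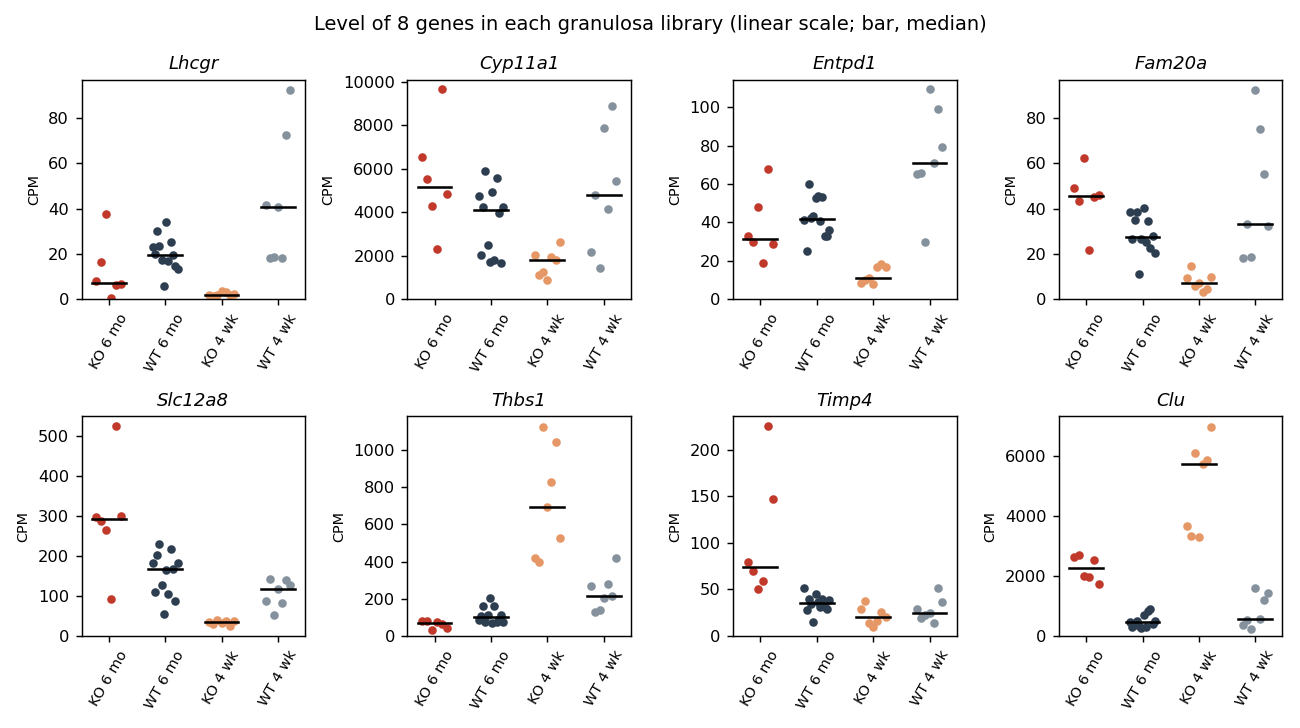
CPM of 8 genes in each granulosa library, on a linear axis, for KO and WT at 6 months and KO and WT at 4 weeks; points are libraries and bars are group medians. Lhcgr, Cyp11a1 and Entpd1 are lowest in KO at 4 weeks, Fam20a and Slc12a8 change sides, Thbs1 is high in KO at 4 weeks, Timp4 is high in KO at 6 months, and Clu stays high in KO at both ages.

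Only 5 genes had lost an effect that was higher in KO at 4 weeks. Elmo1, which helps to activate the small GTPase Rac, had 11.8, 20.9 and 31.2 CPM in KO and 7.81, 13.1 and 18.6 CPM in WT at 6 months. Its levels at 4 weeks were 69.0, 146 and 170.5 CPM in KO and 16.8, 29.6 and 48.2 CPM in WT. The KO libraries of 4 weeks stood clear of all WT libraries of that age, and at 6 months both genotypes were low and overlapped. Elmo1 was still higher in KO at 6 months by log2 0.60 ± 0.23 (edgeR unadjusted p = 0.0124, adjusted p = 0.0979). The interaction of Elmo1 was -1.48 ± 0.33 (adjusted p = 0.022). Its call ended without KO library 2 or 3 of 6 months, or KO library 3 or 6 of 4 weeks (adjusted p up to 0.0580), and by limma voom (adjusted p = 0.0513). Itgb5, integrin beta 5, gave 0.03 ± 0.16 at 6 months and 1.10 ± 0.17 at 4 weeks (interaction -1.08 ± 0.24, adjusted p = 0.0171), and stayed called without any 1 library. The other 3 were close to the threshold: Ddit4l, an inhibitor of mTORC1 (-2.42 ± 0.59, adjusted p = 0.0401), Tcf7l2, a transcription factor of the Wnt pathway (-1.29 ± 0.32, adjusted p = 0.0448), and Ghr, the growth hormone receptor (-1.72 ± 0.43, adjusted p = 0.0488). They stayed called in 13, 11 and 10 of the 32 fits that left out 1 library.

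For 33 genes the effect changed sides. Fam20a, a pseudokinase that assists the secretory pathway kinase Fam20c, had 21.8, 45.5 and 62.6 CPM in KO and 11.2, 27.4 and 40.2 CPM in WT at 6 months. At 4 weeks it had 3.09, 7.18 and 14.5 CPM in KO and 18.1, 33.4 and 92.5 CPM in WT. KO libraries were all below WT at 4 weeks, and 5 of 6 were above the WT median at 6 months. The interaction was 3.21 ± 0.44 (adjusted p = 1.08e-04), from 0.62 ± 0.29 at 6 months (adjusted p = 0.181) and -2.59 ± 0.34 at 4 weeks. For most of this class the direction at 6 months rests on an unadjusted p: the effect passed the adjusted threshold at both ages for 3 of the 33 genes, at 6 months for 13 and at 4 weeks for 16.

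Slc12a8, a solute carrier reported to carry nicotinamide mononucleotide, and Osgin1, a gene induced by oxidative stress, were the named genes that passed on both sides, and the third was E330021D16Rik. Slc12a8 had 92.6, 292 and 524 CPM in KO and 53.8, 166 and 231 CPM in WT at 6 months, and 24.4, 33.1 and 38.2 CPM in KO and 52.9, 118 and 141 CPM in WT at 4 weeks. Its effect was 0.95 ± 0.25 at 6 months (adjusted p = 0.0169) and -1.69 ± 0.28 at 4 weeks (adjusted p = 1.16e-04), with the groups apart at 4 weeks and overlapping at 6 months. Osgin1 had 50.1, 70.3 and 129.7 CPM in KO and 7.13, 23.2 and 45.9 CPM in WT at 6 months, and 3.62, 7.01 and 17.5 CPM in KO and 5.805, 26.7 and 50.9 CPM in WT at 4 weeks. Here the KO libraries stood above every WT library at 6 months and overlapped WT from below at 4 weeks (interaction 3.45 ± 0.55, adjusted p = 5.87e-04).

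Aqp1, a water channel, had its firm side at 6 months, with 16.1, 24.0 and 30.4 CPM in KO and 1.61, 5.42 and 9.79 CPM in WT, against medians of 1.43 CPM in KO and 2.58 CPM in WT at 4 weeks. No KO library overlapped WT at 6 months, and the effect at 4 weeks did not pass (-1.07 ± 0.44, adjusted p = 0.229; interaction 3.14 ± 0.57, adjusted p = 0.00274). Rnd3, an atypical small GTPase, gave 0.71 ± 0.16 and -0.55 ± 0.18, and Adamts1, a matrix protease of ovulation, 0.74 ± 0.24 and -1.12 ± 0.27, at 6 months and 4 weeks in that order. Their interactions were 1.26 ± 0.24 and 1.86 ± 0.37 (adjusted p = 0.00588 and 0.00731).

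In the opposite direction, 6 genes were lower in KO at 6 months and higher at 4 weeks. Thbs1, the matrix glycoprotein thrombospondin 1, had 32.05, 68.8 and 80.2 CPM in KO and 68.3, 98.8 and 204 CPM in WT at 6 months, and 396, 695 and 1128 CPM in KO and 129, 215 and 419 CPM in WT at 4 weeks. All 6 KO libraries lay below the WT median at 6 months and all 7 above it at 4 weeks, with some overlap at each age (interaction -2.45 ± 0.40, adjusted p = 5.87e-04). The effect at 6 months did not pass after adjustment (-0.85 ± 0.27, adjusted p = 0.0562), and that at 4 weeks did (1.60 ± 0.28, adjusted p = 2.62e-04). Mreg, melanoregulin (interaction -2.30 ± 0.48), Slc16a10, an aromatic amino acid transporter (-1.66 ± 0.36), Rel, a subunit of NF-kappa B (-1.72 ± 0.39), and Cnih4, which helps receptors leave the endoplasmic reticulum (-0.99 ± 0.24), had adjusted p = 0.0145, 0.0171, 0.022 and 0.0365. The call of Rel ended without KO library 3 of 6 months (adjusted p = 0.0540), and that of Cnih4 held in 14 of 32 such fits.

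Some of the called genes are transcripts of oocytes. Gdf9, a growth factor that the oocyte secretes (lost), and H1f8, the oocyte linker histone (reversed), both named after their values were seen, were called among the 4 oocyte markers tested, and all 4 had positive interactions (median 3.13). Gdf9 had 10.4, 15.1 and 30.0 CPM in KO and 2.92, 8.15 and 18.1 CPM in WT at 6 months, and 5.21, 6.95 and 13.5 CPM in KO and 3.50, 15.5 and 337 CPM in WT at 4 weeks. The highest value was WT library 6 of 4 weeks, which stood far above all others. Summed oocyte markers ran from 26.9 to 66.6 CPM in KO and 11.5 to 36.3 CPM in WT at 6 months, and from 14.02 to 33.8 CPM in KO and 13.9 to 894.5 CPM in WT at 4 weeks. Zp1, Zp2, Zp3, Nobox and Ddx4 were not listed at 6 months and entered these sums only at 4 weeks. The sums of the 2 ages are therefore not directly comparable. Zp3, an egg coat protein gene, had a count in 4 of 7 KO and 6 of 7 WT libraries of 4 weeks. Without WT library 6 of 4 weeks the interaction of Gdf9 was 1.61 (adjusted p = 0.212) and that of H1f8 was 2.47 (adjusted p = 0.0209), against 3.89 and 3.84 with it. Neither passed by limma voom (adjusted p = 0.308 and 0.115). Nor did they pass once each library's summed oocyte markers entered the fit as a covariate (interactions of 0.03 and 0.84). Gdf9 and H1f8 are part of that sum, so this fit shrinks their interactions by construction and cannot decide on them. The sum also covers different genes at each age. Over the alternatives that did not leave out single libraries the call ended in 9 of 14 for Gdf9 and in 4 of 13 for H1f8. With the oocyte marker covariate, a fit chosen after the data were seen, 18 interactions passed, all 18 among the 92. Obox2, Tcl1, Rfpl4 and Bcl2l10, other reversed genes known from oocytes and named after their values were seen, had interactions of 3.69, 3.42, 3.69 and 2.53.

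Only 10 genes gained an effect at 6 months, 8 of them higher in KO. Timp4, an inhibitor of metalloproteinases, had 49.9, 74.2 and 225 CPM in KO and 15.1, 35.2 and 51.5 CPM in WT at 6 months, and 9.42, 20.1 and 37.6 CPM in KO and 13.8, 24.1 and 51.3 CPM in WT at 4 weeks. All 6 KO libraries of 6 months lay above the WT median, with a small overlap, and the groups of 4 weeks lay on top of each other (interaction 1.97 ± 0.42, adjusted p = 0.015). Without KO library 5 of 6 months the adjusted p was 0.0601, and exons of Timp4 overlap those of Syn2 on the other strand. Art4, an ADP-ribosyltransferase of the cell surface, had 18.2, 35.0 and 61.8 CPM in KO and 2.54, 8.39 and 15.7 CPM in WT at 6 months, and 6.25, 11.8 and 29.8 CPM in KO and 2.58, 17.1 and 30.9 CPM in WT at 4 weeks. Its KO libraries stood above every WT library at 6 months and overlapped WT at 4 weeks (interaction 2.39 ± 0.52, adjusted p = 0.0171).

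Dok7, an adaptor of receptor tyrosine kinase signalling, had an interaction of 2.22 ± 0.52 (adjusted p = 0.0291), and Pim1, a serine/threonine kinase gene that was lower in KO at 6 months, -2.11 ± 0.50 (adjusted p = 0.0291). Each was called in 25 of the 32 fits that left out 1 library. Clasp2, a microtubule-binding protein, was lower in KO at 6 months (-0.72 ± 0.19, against 0.36 ± 0.19 at 4 weeks; interaction -1.08 ± 0.27, adjusted p = 0.0397) and was called in 20 such fits. Slc25a18, a mitochondrial glutamate carrier (2.84 ± 0.70), Mmd2 (3.84 ± 0.96) and Sparcl1, a matricellular protein (1.78 ± 0.45), were called in 11, 10 and 5 of them. The gained class held 4 genes without KO library 5 of 6 months and 22 without WT library 1 of 4 weeks. The 4 resized effects were all lower in KO at both ages and smaller in size at 6 months. Dmbt1, a secreted scavenger receptor, gave -0.88 ± 0.27 and -2.77 ± 0.30, Rusc1 -0.74 ± 0.15 and -1.80 ± 0.16, Fetub, the protease inhibitor fetuin B, -0.71 ± 0.21 and -2.11 ± 0.23, and Ramp2, a receptor activity modifying protein named after its values were seen, -0.79 ± 0.19 and -1.88 ± 0.20, at 6 months and 4 weeks.

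Of 16 luteinisation genes, 2 were higher and 3 lower in KO at 6 months (3.44% and 2.7% of all genes), and none was higher and 7 were lower at 4 weeks (1.49% and 2.24% of all genes). The interaction was called for 3 by edgeR, all positive (Lhcgr, Cyp11a1 and Oxtr; 0.583% of all genes), for 5 by DESeq2 and for none by limma voom. An unadjusted p under 0.05 was found for 10 by edgeR (10.5% of all genes) and for 8 by limma voom. The median interaction of the list was 0.75, against -0.03 over all genes tested, and 14 of the 16 were positive. The list holds several genes of the classes above and was assembled with such results known, so its counts are a description.

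Members without a called interaction split further. Akr1c18, which inactivates progesterone, was lower in KO at both ages (-1.39 ± 0.30 at 6 months and -2.52 ± 0.31 at 4 weeks; interaction 1.13 ± 0.40, adjusted p = 0.273), as was Ptgfr, the prostaglandin F receptor gene, named after its values were seen (-2.31 ± 0.46 and -2.70 ± 0.45). Prlr, the prolactin receptor gene, passed at 4 weeks only (0.06 ± 0.23 and -1.15 ± 0.25), and its interaction missed the threshold (1.22 ± 0.34, adjusted p = 0.0911). Star, which brings cholesterol into mitochondria, was higher in KO at 6 months (0.90 ± 0.28, adjusted p = 0.0481), not at 4 weeks (-0.49 ± 0.31, adjusted p = 0.573), with an interaction of 1.39 ± 0.42 that did not pass (adjusted p = 0.143). Nr4a1, an orphan nuclear receptor induced by luteinizing hormone and named after its values were seen, was also higher in KO at 6 months (1.92 ± 0.49, adjusted p = 0.0165).

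**Figure D3:**
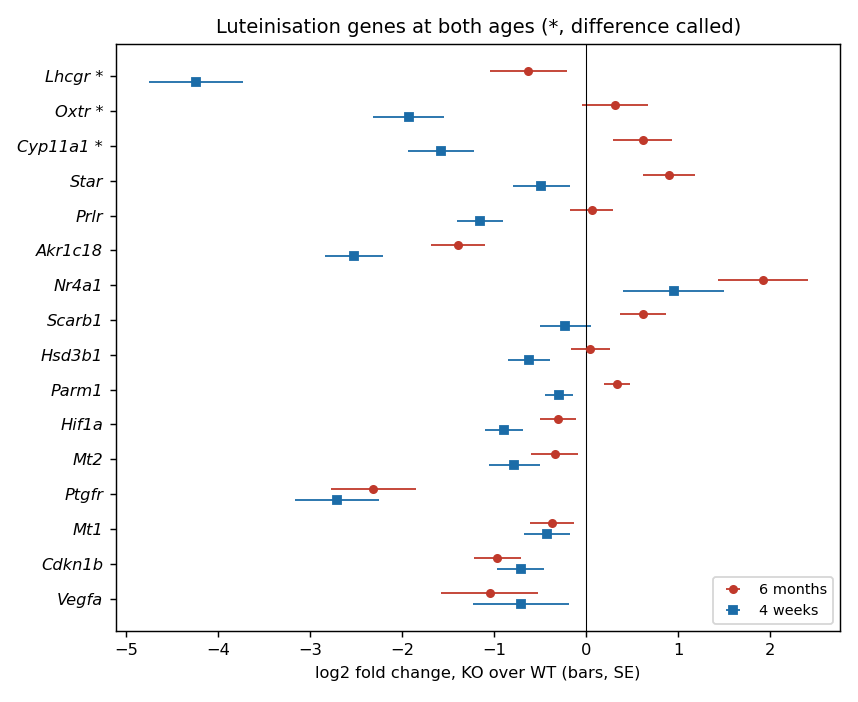
Log2 fold change of KO over WT for the 16 luteinisation genes at 6 months (circles) and 4 weeks (squares), with bars of 1 SE and genes ordered by their interaction; a star marks the 3 with a called interaction. Lhcgr, Oxtr and Cyp11a1 lie at the top with the widest gap between the ages, and Ptgfr and Akr1c18 stay below 0 at both.

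The other lists gave few calls, against 0.679% of all genes called (0.583% positive and 0.096% negative). Steroid synthesis had 1 of 16 (Cyp11a1; median interaction 0.66), ovulation and cumulus expansion 1 of 17 (Adamts1; median 0.41), extracellular ATP and adenosine 1 of 13 (Entpd1; median 0.67) and cholesterol synthesis and uptake 1 of 25 (Fdps; median 0.27). Nt5e, the enzyme after Entpd1 on the way to adenosine, was lower in KO at both ages (-1.45 ± 0.31 at 6 months and -3.10 ± 0.34 at 4 weeks), with an interaction of 1.65 ± 0.44 that missed the threshold (adjusted p = 0.0645). Matrix and basement membrane genes had 1 positive (Col18a1) and 1 negative call (Thbs1) of 30. Itih5, a hyaluronan-binding matrix protein, was higher in KO at 4 weeks (4.24 ± 0.66) and not at 6 months (0.38 ± 0.74), with an interaction of -3.86 ± 0.99 (adjusted p = 0.0546).

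TGF-beta family genes had 1 positive call of 32 (Id2), with a median of -0.42. Id3, another such target, was higher in KO at 4 weeks (1.15 ± 0.26) and had an interaction of -1.20 ± 0.36 that did not pass (adjusted p = 0.124). In the Wnt and R-spondin list 1 of 18 was called (Tcf7l2, negative), and Fzd1, a Wnt receptor gene lower in KO at 6 months (-1.58 ± 0.31), had -1.48 ± 0.43 (adjusted p = 0.116). No interaction was called by edgeR, DESeq2 or limma voom among 27 genes of granulosa identity and response to follicle-stimulating hormone (5 at an unadjusted p under 0.05 by edgeR, which 10.5% of all genes had), 31 cell cycle genes (1), 19 glycolysis genes (2), 28 nuclear genes of oxidative phosphorylation (1) or 24 cytosolic ribosomal protein genes (2). Within the first of these, Fst, the activin antagonist follistatin, was lower in KO at 6 months (-1.42 ± 0.30, adjusted p = 0.00338) and gave -0.14 ± 0.30 at 4 weeks. Kitl, the granulosa ligand of the oocyte's Kit receptor, was higher in KO at 4 weeks (1.57 ± 0.33) and gave 0.42 ± 0.31 at 6 months; neither interaction passed (adjusted p = 0.191 and 0.352).

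Retinoid handling had 1 call of 13, Aldh1a2, an enzyme that makes retinoic acid and a marker of theca cells, with 0, 6.45 and 22.9 CPM in KO and 0.230, 1.32 and 7.09 CPM in WT at 6 months. At 4 weeks its medians were 0.329 CPM in KO and 1.93 CPM in WT. All of these levels are low, and 1 KO library of 6 months, number 3, stood above all others (interaction 4.21 ± 1.00, adjusted p = 0.0292). The call ended without that library, without KO library 3, 5 or 6 and without WT library 4, 6 or 7 of 4 weeks (adjusted p up to 0.156), and by limma voom. Of the 9 theca and stroma markers tested, Aldh1a2 included, 8 had positive interactions (median 1.44). Sums were also taken without Hsd3b1, which granulosa cells also hold, over those of 13 markers that were listed at each age. They ran from 13.5 to 372.5 CPM in KO and 22.2 to 69.6 CPM in WT at 6 months. At 4 weeks they ran from 20.8 to 72.9 CPM in KO and 26.7 to 81.3 CPM in WT. Of the markers that define theca cells, Insl3 had a count in 2 of 6 KO and 6 of 12 WT libraries at 6 months, and Cyp17a1 in 2 of 7 KO and 4 of 7 WT libraries at 4 weeks. Insl3 was not listed at 4 weeks and Cyp17a1 not at 6 months, so the sums do not cover the same genes at both ages. The part of theca and stroma markers in the result was not tested.

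The age difference within each genotype shows where the interactions lay. Over the 92 genes, the difference between 6 months and 4 weeks was larger in size in KO than in WT for 75 (81.5%, against 62.2% of all genes tested). It passed in KO for 75 (15% of all genes did) and in WT for 30 (9.44% of all genes), with 61 passing in KO only. The interaction is the KO age difference minus the WT age difference, so choosing genes by it favours large age differences. These counts therefore describe the 92 genes and are no separate result. Over all genes the KO difference was called higher for 6.94% and lower for 8.03%, and the WT difference higher for 3.67% and lower for 5.77%. For the 40 lost effects lower at 4 weeks, the median age difference was 1.68 in KO and -0.42 in WT. In KO 34 of them were called higher at 6 months, and in WT 11 were called lower. Lhcgr gave 2.52 ± 0.51 in KO (adjusted p = 9.22e-04) and -1.09 ± 0.37 in WT (adjusted p = 0.0561), Col18a1 1.74 ± 0.18 in KO and 0.09 ± 0.15 in WT, and Slc12a8 3.14 ± 0.30 in KO and 0.50 ± 0.25 in WT. Thbs1 gave -3.56 ± 0.33 in KO (adjusted p = 6.32e-09) and -1.10 ± 0.24 in WT (adjusted p = 0.00302). Each age is its own deposited table, so such differences carry any difference between the tables; this cancels in the interaction only where it is the same in both genotypes.

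**Figure D4:**
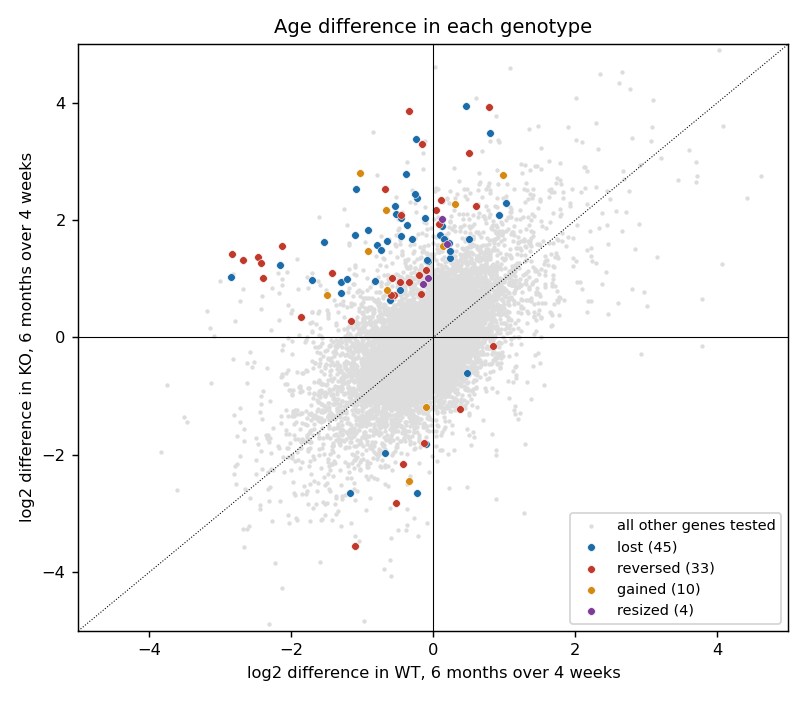
Log2 difference between 6 months and 4 weeks in WT (horizontal axis) and KO (vertical axis) for every tested gene, with the 92 genes coloured by class and the dotted line marking equal differences. Most lost and reversed genes lie above 0 in KO and at or below 0 in WT.

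The 7 week libraries played no part in the classes, and in them most lost effects had the sign they had at 4 weeks. Of the 40 lost effects lower at 4 weeks, 38 were lower in KO at 7 weeks (median log2 -1.18) and 10 passed there (of the 12002 genes tested at 7 weeks, 0.8% were called, 0.35% lower and 0.45% higher). They included Lhcgr (-3.51 ± 0.54, adjusted p = 0.00746), Pik3c2g (-1.53 ± 0.28, adjusted p = 0.018), Entpd1 (-1.59 ± 0.33, adjusted p = 0.0381) and Fdps (-1.05 ± 0.22, adjusted p = 0.0419). Theca and stroma markers without Hsd3b1, summed over those listed at each age, were also lower in KO there. Their medians were 56.9 CPM in KO and 159 CPM in WT at 7 weeks, against 89.1 CPM in KO and 32.3 CPM in WT at 6 months, and their part was not tested. Others were near 0 at 7 weeks, such as Oxtr (0.14 ± 0.38), Col18a1 (-0.14 ± 0.28) and Rora (-0.18 ± 0.28). Of the 27 reversed effects lower at 4 weeks, 25 were tested and 23 were lower in KO at 7 weeks (median -0.63). Of these 25 edgeR called none, 13 had an unadjusted p under 0.05, and no other tool was run at that age. They include oocyte genes: H1f8 (-2.44 ± 1.07), Bcl2l10 (-2.34 ± 0.90), Tcl1 (-2.30 ± 1.01) and Obox2 (-2.26 ± 1.03). Summed oocyte markers at 7 weeks had a median of 31.0 CPM in KO (23.0 to 124.6) and 290 CPM in WT (8.54 to 454.9). The part of oocyte RNA in these signs was not tested. Rel, higher in KO at 4 weeks, was higher at 7 weeks as well (1.58 ± 0.28, adjusted p = 0.0145). Of the 8 effects gained upwards, 4 were higher and 4 lower at 7 weeks, while Pim1, lower in KO at 6 months, was higher in KO at 7 weeks (1.45 ± 0.32, adjusted p = 0.0492).

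**Figure D5:**
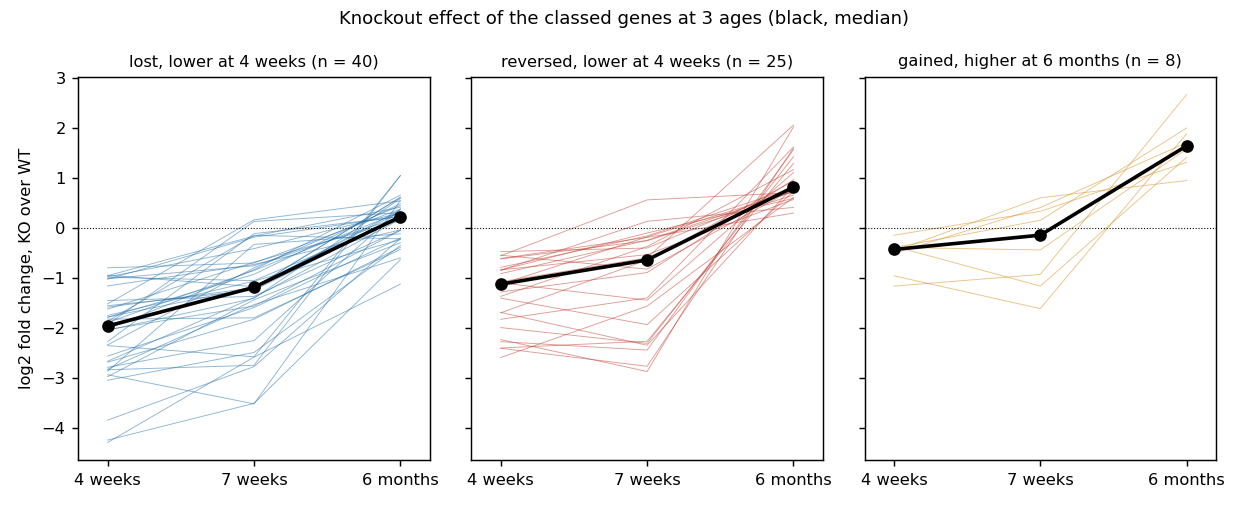
Log2 fold change of KO over WT at 4 weeks, 7 weeks and 6 months for the lost and reversed genes lower at 4 weeks and the gained genes higher at 6 months; thin lines are genes and black lines are medians. The medians of the lost genes run from -1.96 at 4 weeks over -1.18 at 7 weeks to 0.23 at 6 months.

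Among the 154 genes that passed at both ages on the same side with no interaction called, 85 were higher and 69 lower in KO. Thbs4, a matrix thrombospondin, had 5.68, 13.5 and 15.7 CPM in KO and 156, 262 and 343 CPM in WT at 6 months, and 5.45, 25.7 and 36.1 CPM in KO and 130.3, 280.0 and 422 CPM in WT at 4 weeks. Clu, the secreted chaperone clusterin, had 1718, 2246 and 2698 CPM in KO and 270.0, 443 and 885 CPM in WT at 6 months, and 3292, 5738 and 6974 CPM in KO and 216, 574 and 1577 CPM in WT at 4 weeks. Neither overlapped between genotypes at either age, Thbs4 low and Clu high in KO. Grb14, which binds and inhibits the insulin receptor, gave 2.53 ± 0.24 at 6 months and 2.05 ± 0.28 at 4 weeks, and Aldh1a1, which makes retinoic acid, gave 3.11 ± 0.34 and 2.72 ± 0.41. Pmm1, a phosphomannomutase, gave 1.09 ± 0.17 and 1.62 ± 0.19, Ate1, an arginyltransferase, -1.08 ± 0.16 and -1.20 ± 0.16, and Col6a3, a collagen VI chain, -1.81 ± 0.30 and -3.40 ± 0.32.

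An interaction that was not called does not show equal effects. The 95% interval of the interaction lay within 1 log2 unit of 0 on both sides for 59 of the 154 kept genes, and its median width was 1.62 log2 units. The effect was smaller in size at 6 months for 99 of the 154 and larger for 55. Fitted interactions in the class ran from -1.18 to 2.40. Dhrs3, a retinaldehyde reductase lower in KO at both ages, gave 1.05 ± 0.36 (adjusted p = 0.235), and Col6a3 gave 1.59 ± 0.41 (adjusted p = 0.0591).

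Markers of other cells moved with genotype or age. Of 5 erythroid markers tested, 3 were lower in KO at 6 months and 5 at 4 weeks, and of 16 immune markers 2 were lower at 6 months and 1 at 4 weeks (2.7% of all genes at 6 months and 2.24% at 4 weeks). By edgeR all 5 erythroid markers had positive interactions (median 1.29), and 8 of the 16 immune markers did (median -0.10). The erythroid median was 1.30 by DESeq2 and -0.01 by limma voom, so its direction depends on the tool. Summed erythroid markers ran from 2.58 to 162.9 CPM in KO and 30.1 to 876.0 CPM in WT at 6 months, and from 9.23 to 40.9 CPM in KO and 26.1 to 889.7 CPM in WT at 4 weeks. None of these 21 markers had a called interaction by edgeR, DESeq2 or limma voom, or an unadjusted p under 0.05 in any of the 3. With the erythroid level of each library as a covariate 102 interactions passed, 91 of them among the 92, and with the immune level 91 passed, 86 of them among the 92. The class of reversed effects held 13 genes with the erythroid level.

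Cumulus markers such as Slc38a3 ran from 287.6 to 779.0 CPM in KO and 206.8 to 408.5 CPM in WT at 6 months, and from 249.4 to 554.0 CPM in KO and 223.1 to 345.6 CPM in WT at 4 weeks. Of 10 surface epithelium markers all had positive interactions (median 1.10), of which edgeR, DESeq2 and limma voom called none and 3 had an unadjusted p under 0.05 by edgeR (10.5% of all genes). Levels also leaned with transcript length: the rank correlation across genes between length and a library's log2 level relative to the mean of all libraries ran from -0.37 to 0.00 in KO and -0.40 to 0.27 in WT at 6 months, and from -0.06 to 0.25 in KO and -0.13 to 0.41 in WT at 4 weeks. With that trend removed, also chosen after the data were seen, 115 interactions passed, 85 of them among the 92. The part of these markers in the results was not tested.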

How the data were processed

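RNA of mouse granulosa cells was measured by Smart-seq2. The deposited tables hold expected counts, estimated read numbers per gene symbol that the authors did not normalise; 83.0% of the values are whole. STAR, Partek and DESeq2 and the mm10 genome are named in the submitters' processing notes; versions, annotation and the use of strand are not given in the sources used here. The tables of both ages were joined by symbol, which left out 543 symbols found only at 6 months and 2606 only at 4 weeks. Counts were rounded, filtered with filterByExpr, scaled by TMM and fitted in edgeR 4.0.16 (R 4.3.3) by robust quasi-likelihood with 1 mean for each of the 4 groups, without the replicate number, over 32 libraries. P-values were adjusted by Benjamini-Hochberg over 13544 genes, and the threshold was 0.05. Groups were taken from the titles. CPM of single genes are counts divided by the library size over the tested genes, as scaled by TMM. Summed markers and the group means of Serpine2, Inha, Foxl2 and Fshr are instead counts divided by the unscaled library total. Values on these different scales are not directly comparable. Total counts (lowest, median and highest) were 1486396, 2629598.5 and 5130419 in KO and 826029, 4127534.5 and 5083127 in WT at 6 months, and 2814194, 3884173 and 4085475 in KO and 1413790, 2918453 and 6469419 in WT at 4 weeks. The 7 week libraries were fitted on their own. No libraries were identical.

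Named were Esr2, Esr1 and, by smallest p among genes averaging 5 CPM or more in some group, up to 6 genes per direction of lost and gained effects, 5 of reversed, 3 of resized and 4 of kept, and up to 3 per gene list; genes outside this rule are marked where they appear. The genes, lists and comparisons were chosen with earlier results of these data known. Alternatives used DESeq2 1.42.0, limma 3.58.1, other scalings, filters, covariates and sets of libraries. The test was tried on simulated data. Promoter windows come from RefSeq, GRCm38.p6, the assembly that mm10 names, and 9869 tested genes had one. Where counting ignored strand, reads cannot be told apart between Timp4, Slc25a18, Thbs1, Rora, Elmo1, Ptgs1, Pim1 or Fst and a gene whose exons overlap theirs on the other strand. Cyp11a1, Fdps, Rusc1 and Prlr overlap an annotated gene on their own strand.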

Additional observations from a re-analysis of the deposited data

Results flagged for a closer look

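The knock-out effect differed between 6 months and 4 weeks, by the interaction test of edgeR, for 41 of the named genes (Gdf9 and H1f8 among them, which were named after their values were seen). Among lost effects the log2 interaction was 3.61 for Lhcgr, 2.19 for Cyp11a1, 2.24 for Oxtr, 2.36 for Entpd1, 1.65 for Col18a1, 2.23 for Pik3c2g, 2.84 for Pdlim2, 1.26 for Rora, 2.27 for Ptgs1, 1.37 for Id2, 1.16 for Fdps and 3.89 for Gdf9. Lost effects that had been higher in KO at 4 weeks gave -1.08 for Itgb5, -1.48 for Elmo1, -2.42 for Ddit4l, -1.29 for Tcf7l2 and -1.72 for Ghr. Reversed effects gave 3.21 for Fam20a, 2.64 for Slc12a8, 3.45 for Osgin1, 3.14 for Aqp1, 1.26 for Rnd3, 1.86 for Adamts1, 4.21 for Aldh1a2 and 3.84 for H1f8. On the other side they gave -2.45 for Thbs1, -2.30 for Mreg, -1.66 for Slc16a10, -1.72 for Rel and -0.99 for Cnih4. Gained effects gave 1.97 for Timp4, 2.39 for Art4, 2.22 for Dok7, 2.84 for Slc25a18, 3.84 for Mmd2, 1.78 for Sparcl1, -2.11 for Pim1 and -1.08 for Clasp2, and resized effects 1.90 for Dmbt1, 1.06 for Rusc1 and 1.405 for Fetub.

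A single library stood far from the rest of its group, by Dixon's gap test, in 29 of 184 pairs of a named gene and a group (15.8%). The nominal 5% of that test holds for normal values. It was run on linear CPM of genes picked from these same libraries, so 5% is not the share to compare with. The WT group of 6 months, with 12 libraries, was too large for that test and was not checked. KO library 7 of 4 weeks was the outlying library for 7 of them. It was the highest for Aldh1a1 (124 CPM), Art4 (29.8 CPM), Lpl (149.7 CPM), Pdlim2 (8.49 CPM), Pim1 (67.7 CPM), Rora (267 CPM) and Star (558 CPM). Other KO libraries of 4 weeks stood high for Akr1c18 (519.6 CPM, library 1), Dok7 (23.5 CPM, library 5) and Slc25a18 (5.46 CPM, library 5).

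At 6 months a KO library was highest for Aldh1a2 (22.9 CPM, library 3), Cnih4 (156 CPM, library 3), Ddit4l (41.0 CPM, library 4) and Gdf9 (30.0 CPM, library 5). A KO library was lowest there for Kitl (3.79 CPM, library 6), Thbs4 (5.68 CPM, library 6), Prlr (62.3 CPM, library 4) and Slc25a18 (6.31 CPM, library 1). At 4 weeks a WT library was highest for Gdf9 (337 CPM) and H1f8 (147 CPM), both library 6, for Adamts1 (249 CPM) and Oxtr (49.7 CPM), both library 7, and for Ate1 (229.6 CPM) and Itih5 (7.74 CPM), both library 3. WT library 1 of 4 weeks was highest for Mreg (32.9 CPM) and Slc16a10 (66.7 CPM) and lowest for Rnd3 (20.9 CPM), and WT library 5 was highest for Aqp1 (10.7 CPM) and lowest for Esr2 (11.1 CPM).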

How the results depend on the processing

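Each of the 92 interactions that could be tested kept its sign under every alternative, but the number past the threshold did not. DESeq2 called 193 interactions (67 reversed, 75 lost, 40 gained, 10 resized) and 1309 for the knockout effect at 6 months. Limma voom called 48 (19 reversed, 21 lost, 5 gained). It ended the calls of Lhcgr, Cyp11a1, Oxtr, Fdps, Elmo1, Ddit4l, Tcf7l2, Gdf9, H1f8, Aldh1a2, Slc25a18, Mmd2, Sparcl1 and Clasp2. With each age fitted alone 156 interactions, 1511 effects at 6 months and 270 at 4 weeks passed, with 54 reversed, 33 gained and 8 resized. Median ratio size factors gave 16 gained effects and 108 interactions, 90.7% of them positive, against 85.9% with TMM. No filter on low counts gave 71 interactions. The immune level as a covariate gave 530 effects at 6 months and 2 resized. The erythroid level gave 199 effects at 6 months, 13 reversed, 3 gained and 68 kept. Without libraries under 1500000 counts 552 effects at 6 months and 6 gained remained. The oocyte marker level, chosen after the data were seen, gave 18 interactions, 382 effects at 6 months, 7 reversed, 11 lost, none gained or resized (0 of each) and 96 kept, with 768 interactions at an unadjusted p under 0.05.

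Replicate numbers occur in both genotypes, and no general pairing by number was seen. The labels name no animals, so these few correlations cannot show that there was none. The correlation of same-numbered libraries ran from -0.205 to 0.382 at 6 months and from -0.385 to 0.424 at 4 weeks, and 1 of 6 and 1 of 7 KO libraries correlated best with their own number. With the replicate block 12 interactions (965 at an unadjusted p under 0.05), 165 effects at 6 months and 303 at 4 weeks passed, with 5 reversed, 7 lost, 0 gained, 0 resized and 67 kept. The same libraries without the block gave 17 interactions, 456 for the knockout effect at 6 months, 6 reversed, 10 lost, 1 gained and 0 resized. These fits use 6 KO and 6 WT libraries at 6 months.

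Leaving out 1 library at a time gave 55 to 143 interactions, 480 to 1101 effects at 6 months, 389 to 529 at 4 weeks, 20 to 58 reversed, 27 to 59 lost, 4 to 22 gained, 1 to 6 resized and 122 to 167 kept. Of the 41 named interactions, 7 passed under all 14 alternatives that kept or dropped several libraries (Col18a1, Pik3c2g, Entpd1, Fam20a, Slc12a8, Osgin1 and Thbs1). Over all alternatives and named genes, 2841 values stayed on their side of the threshold, 378 no longer passed, 42 newly passed and none changed sign. The cause of these changes was not tested.

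Small differences were often missed: on simulated data for the interaction, with 13286 genes, 22% of genes changed by log2 1 were called, 94% of those changed by 2 and 100% of those changed by 3. The changes were planted only in genes above a floor of mean CPM that is higher than the filter on low counts. The spread followed its trend with level and was the same in all groups. These shares therefore need not hold for all genes tested. Depth was not varied there.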
